A study of Mus musculus with 8 samples.

Results

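Oxidative phosphorylation (OXPHOS) is carried out by complexes I to V of the inner mitochondrial membrane, and most of their subunits are encoded by nuclear genes. The nuclear subunit genes were taken as all protein-coding rows of the expression table whose symbols begin with Nduf, Sdh, Uqcr, Cox4 to Cox8 or Atp5 in the forms used for subunits. This rule, which leaves out nuclear subunits such as Ndufab1 and Cyc1, gave 88 genes of the 56748 listed. By complex they numbered 37 for complex I, 4 for complex II, 8 for complex III, 21 for complex IV (with Ndufa4 and Ndufa4l2, whose products belong to cytochrome c oxidase) and 18 for complex V. The complex IV genes include Cox5b-ps, which has a pseudogene name but is listed as protein-coding, at 29.4 to 41.4 FPKM. It is counted throughout, and whether it shares reads with Cox5b was not tested. Of these 88 genes, 81 reached 1 FPKM or more in 2 or more libraries and were tested among 11818 genes. FPKM divides the fragments on a gene by its length and by the size of the library, so levels of different genes are compared per length throughout.

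The RNA came from 32D cells, a mouse myeloid line that depends on interleukin-3, and the study asked how loss of glucose uptake changes cells with and without an activated Jak2. All cells carried either Jak2WT or Jak2V617F, the mutation found in myeloproliferative neoplasms. In each background, CRISPR-Cas9 clones grown from single cells were either GLUT1/3 WT or GLUT1/3 double knockout (dKO), edited in the glucose transporter genes Slc2a1 and Slc2a3 (the deletion below), which gave 4 groups. Each group had 2 libraries, from clones 1 and 3, each of a single clone kept for 24 h in low-supplemented RPMI (glucose at 5 mM, glutamine at 1 mM, IL-3 at 2 ng/ml). Values of a group are given below for clone 1 and then for clone 3.

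Complexes I and II feed electrons from NADH and succinate into the ubiquinone pool, complex III passes them to cytochrome c, and complex IV reduces oxygen. Complexes I, III and IV pump protons as they work, and complex V, the ATP synthase, lets protons back through its c-ring to drive the catalytic F1 head. Proliferating blood cells use the chain for ATP and also for aspartate and pyrimidine synthesis, beside glycolysis. Complex II is built from nuclear subunits alone, while the other complexes combine nuclear subunits with some encoded by mitochondrial DNA.

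Nuclear OXPHOS promoters are known for sites of NRF1 and of ETS factors such as GABPA, and RefSeq promoter sequences were found for 66 of the 81 tested genes. The window ran from 250 bases before to 50 bases after the start. NRF1 motifs (GCGCATGCG) were present in 12.1% of the 66 promoters and in 2.61% of those of 17491 protein-coding genes. ETS motifs (CCGGAAG) were present in 25.8% against 12.9%, and YY1 motifs (AAGATGGCG) in 10.6% against 2.14%. Hypoxia response cores (ACGTG or GCGTG) were present in 66.7% against 52.3%, and E-boxes (CACGTG, which contains ACGTG) in 9.09% against 8.91%. All motifs were searched on both strands. Stretches upstream of 6 genes follow, taken as the bases before the RefSeq start that lie outside the listed gene, with motif matches in capitals (GRCm39, 5′ to 3′ on the gene's strand). Ndufa9 (chr6:126826108-126826357, reverse strand), Ndufb6 (chr4:40279422-40279671, reverse), Uqcrfs1 (chr13:30729346-30729549, reverse) and Atp5b (chr10:127918926-127919141, forward) are shown because these subunits fell in Jak2V617F dKO clones, and Uqcr11 (chr10:80242665-80242905, reverse) because it fell in Jak2WT dKO clones. Cox6a1 (chr5:115487041-115487267, reverse), which passed the test in none of the 5 comparisons, is shown for its NRF1 matches, which overlap each other on both strands. Part of this last stretch also lies in a non-coding RNA gene of the other strand.
Ndufa9: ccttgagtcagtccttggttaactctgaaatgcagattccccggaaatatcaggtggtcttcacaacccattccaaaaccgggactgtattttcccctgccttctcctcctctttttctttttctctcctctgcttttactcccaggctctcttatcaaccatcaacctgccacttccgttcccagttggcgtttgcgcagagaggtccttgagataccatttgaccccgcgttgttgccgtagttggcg
Ndufb6: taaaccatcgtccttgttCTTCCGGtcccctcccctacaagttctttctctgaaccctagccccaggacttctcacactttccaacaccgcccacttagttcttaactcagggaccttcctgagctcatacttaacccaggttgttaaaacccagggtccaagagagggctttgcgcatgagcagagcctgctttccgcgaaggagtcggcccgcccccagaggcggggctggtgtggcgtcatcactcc
Uqcrfs1: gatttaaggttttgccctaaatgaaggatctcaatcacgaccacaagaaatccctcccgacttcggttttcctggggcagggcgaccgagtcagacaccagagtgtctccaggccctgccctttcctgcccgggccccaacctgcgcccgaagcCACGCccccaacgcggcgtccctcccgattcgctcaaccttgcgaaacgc
Uqcr11: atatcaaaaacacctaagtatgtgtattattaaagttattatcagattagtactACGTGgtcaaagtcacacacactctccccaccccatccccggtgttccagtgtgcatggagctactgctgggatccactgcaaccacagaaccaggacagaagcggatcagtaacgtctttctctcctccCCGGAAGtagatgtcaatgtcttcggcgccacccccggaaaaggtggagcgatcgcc
Cox6a1: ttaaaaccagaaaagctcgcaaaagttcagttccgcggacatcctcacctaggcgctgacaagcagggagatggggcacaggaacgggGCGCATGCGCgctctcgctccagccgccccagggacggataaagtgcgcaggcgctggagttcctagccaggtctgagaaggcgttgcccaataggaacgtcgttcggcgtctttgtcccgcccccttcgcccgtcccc
Atp5b: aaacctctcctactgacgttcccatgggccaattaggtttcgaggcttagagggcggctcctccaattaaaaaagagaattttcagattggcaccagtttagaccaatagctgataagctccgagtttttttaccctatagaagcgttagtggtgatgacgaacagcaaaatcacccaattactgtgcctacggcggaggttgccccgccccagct
The capitals mark an ETS match in Ndufb6, a hypoxia response core in Uqcrfs1, a hypoxia response core followed by an ETS match in Uqcr11, and the NRF1 matches in Cox6a1. The stretches of Ndufa9 and Atp5b held none of these motifs. The counted windows differ from these stretches and held further motifs, namely a YY1 motif in Ndufa9, a hypoxia response core in Atp5b, an NRF1 motif in Uqcr11 and an ETS motif in Cox6a1. Of the 19 genes with a promoter that fell in Jak2V617F dKO clones, 1 held an ETS motif (5.26%), against 16 of the 47 others (34.0%). NRF1 motifs were in 1 (5.26%) against 7 (14.9%), YY1 motifs in 3 (15.8%) against 4 (8.51%), hypoxia response cores in 11 (57.9%) against 33 (70.2%) and E-boxes in 1 (5.26%) against 5 (10.6%). No test was made of these shares. These are counts of letters in a window and not of bound factors.

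The libraries held 16846011 to 48884329 reads on genes, as recovered from the FPKM steps. The targeted transporters were lower in dKO clones, with Slc2a1 at 9.17 to 17.3 FPKM against 44.7 to 64.0 FPKM, and Slc2a3 at 16.0 to 49.5 FPKM against 91.9 to 198 FPKM. Of 10 myeloid markers, 4 passed the filter and were tested. Csf2rb, Spi1, Il3ra and Prtn3 were present while Kit and Cebpa were listed at 0 in all libraries. In both clones of a group, 5 of the 10 were at 0 in Jak2V617F GLUT1/3 WT, 3 in Jak2V617F dKO and 2 in each Jak2WT group. Summed erythroid markers reached 2716 to 4882 FPKM in Jak2V617F dKO clones against 645 to 1008 FPKM in Jak2V617F GLUT1/3 WT clones. In Jak2WT they were 422 to 449 FPKM in dKO clones against 276 to 291 FPKM in GLUT1/3 WT clones. Summed myeloid markers were 80.4 to 81.8 FPKM in Jak2V617F dKO clones against 165 to 168 FPKM in Jak2V617F GLUT1/3 WT clones, and 144 to 179 FPKM against 196 to 221 FPKM in Jak2WT. Summed mast cell or basophil markers were 51.0 to 101 FPKM in Jak2WT clones and 0 to 1.67 FPKM in Jak2V617F clones, and summed lymphoid markers were at most 0.708 FPKM in any library. Summed megakaryocyte markers were 63.2 to 63.7 FPKM without and 85.3 to 90.2 FPKM with the deletion in Jak2WT, and 177 to 189 FPKM and 187 to 240.1 FPKM in Jak2V617F. With the deletion, 2 of 8 tested erythroid markers rose in Jak2WT and 6 rose and 1 fell in Jak2V617F. Of 4 tested megakaryocyte markers, 2 rose in each background. Of 4 tested myeloid markers, 0 passed in Jak2WT and 2 fell in Jak2V617F. Of all genes tested, 7.62% rose and 6.06% fell in Jak2WT, and 13.7% rose and 16.2% fell in Jak2V617F. These marker differences stand beside every comparison made here, the deletion in Jak2WT included. Their part in the results was not tested, and in bulk RNA fewer cells of a type and less RNA per cell cannot be told apart. Whole chromosomes also stood apart in some libraries. Relative to the mean of all libraries, the median log2 level on chromosomes 3 and 13 was -0.27 each in Jak2V617F dKO clone 1, and on chromosome 16 it was -0.21 and -0.25 in the Jak2V617F GLUT1/3 WT clones. On chromosome 5 it was -0.18 in Jak2V617F dKO clone 3.

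The 81 nuclear subunit genes together made up 1.73% of all FPKM in Jak2WT GLUT1/3 WT clones, 1.51% in Jak2WT dKO clones, 1.67% in Jak2V617F GLUT1/3 WT clones and 1.503% in Jak2V617F dKO clones, as group means. Their summed level was 4928 ± 247 FPKM (SD, n = 2) in Jak2WT GLUT1/3 WT clones and 4621 ± 11.2 FPKM in Jak2WT dKO clones. It was 5302 ± 306 FPKM in Jak2V617F GLUT1/3 WT clones and 4470 ± 94.2 FPKM in Jak2V617F dKO clones. Complexes IV and V held the largest shares of the summed level in every group, followed by complexes I, III and II. In Jak2WT clones the sum of complex I was 1256 FPKM without and 1171 FPKM with the deletion, and in Jak2V617F clones it was 1320.1 and 1120 FPKM. Complex V went from 1464 to 1295 FPKM in Jak2WT and from 1590.2 to 1301 FPKM in Jak2V617F, and complex IV from 1395 to 1408 FPKM and from 1569 to 1333 FPKM. These sums are descriptions, since a few abundant genes carry them.

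Genes differed widely in level within a complex. Mean FPKM over all 8 libraries ranged from 1.08 (Ndufb2) to 77.7 (Ndufa8) in complex I, from 28.5 (Sdhc) to 122 (Sdhd) in complex II and from 31.9 (Uqcrc1) to 100.3 (Uqcrh) in complex III. It ranged from 0.744 (Cox4i2) to 339.8 (Cox8a) in complex IV and from 13.1 (Atp5l) to 333 (Atp5a1) in complex V. The listed length of Atp5l was 11.7 times that of its canonical transcript, and 19 of the 81 listed lengths exceeded that transcript by over 2 times. Others were shorter than the transcript, down to 0.233 times for Uqcr11. Where the extra bases hold few reads, a long listed length lowers the FPKM and draws fold changes, taken on log2(FPKM + 1), toward 0. Which bases hold the reads was not tested.

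On the deposited FPKM scale, deletion of GLUT1/3 in Jak2WT cells changed few of these genes. At an adjusted p-value under 0.05 in limma, 3 of 81 fell and 3 rose (3.7% each way), where 6.06% of all genes tested fell and 7.62% rose. Their median log2 fold change was -0.09, beside 0.0082 for all genes, and 53 of 81 lay below 0. This split depended on scaling. With libraries set to the same summed FPKM, 19 fell and 2 rose, where 1378 and 706 of all 11818 genes did. With recovered reads tested in voom, 15 fell and 2 rose, where 1597 and 1018 did. With chromosome medians set equal, 6 fell and 3 rose, where 933 and 1081 did. Most of the 6 calls were lost without any one Jak2WT library, as were most calls over all genes.

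In Jak2V617F cells, deletion of GLUT1/3 lowered 25 of the 81 genes (30.9%) and raised 3, while 16.2% of all genes tested fell and 13.7% rose. The median log2 fold change was -0.23, beside -0.019 for all genes, and it stayed below 0 under each scaling tried. With the same summed FPKM and with voom it was -0.13 each, beside 0.055 and 0.067 for all genes. The Jak2WT medians were then -0.19 and -0.14, beside -0.074 and -0.056 for all genes. The clones of both groups did not overlap in 46 genes with the deletion on the lower side (56.8%) and in 11 with it on the higher side (13.6%), beside 34.4% and 29.9% of all genes tested. With the same summed FPKM, 18 fell and 8 rose, where 1452 and 2192 of all 11818 genes did. With voom, 16 fell and 6 rose, where 1613 and 2353 did. Without any 1 library fewer of the 81 genes fell, and fewer of all genes. Without clone 1 of Jak2V617F GLUT1/3 WT or of Jak2V617F dKO, the share that fell was not above that of all genes. The median was then -0.18 in both fits, beside -0.007 and -0.021 for all genes. When only both Jak2V617F groups entered the fit, 6 of 80 fell, beside 1002 of 11275 genes, so the share was again not above that of all genes. With no filter on low values, 12 of 84 fell, beside 1354 of 25788 genes. The calls of Ndufa5, Ndufa9, Ndufv3, Cox4i1, Atp5b and Atp5j were kept in each of the 16 alternatives. With 2 clones a group, an exact permutation test of 1 gene cannot give a p below 0.333, and the model's p-values measure the spread between clones.

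**Figure D1:**
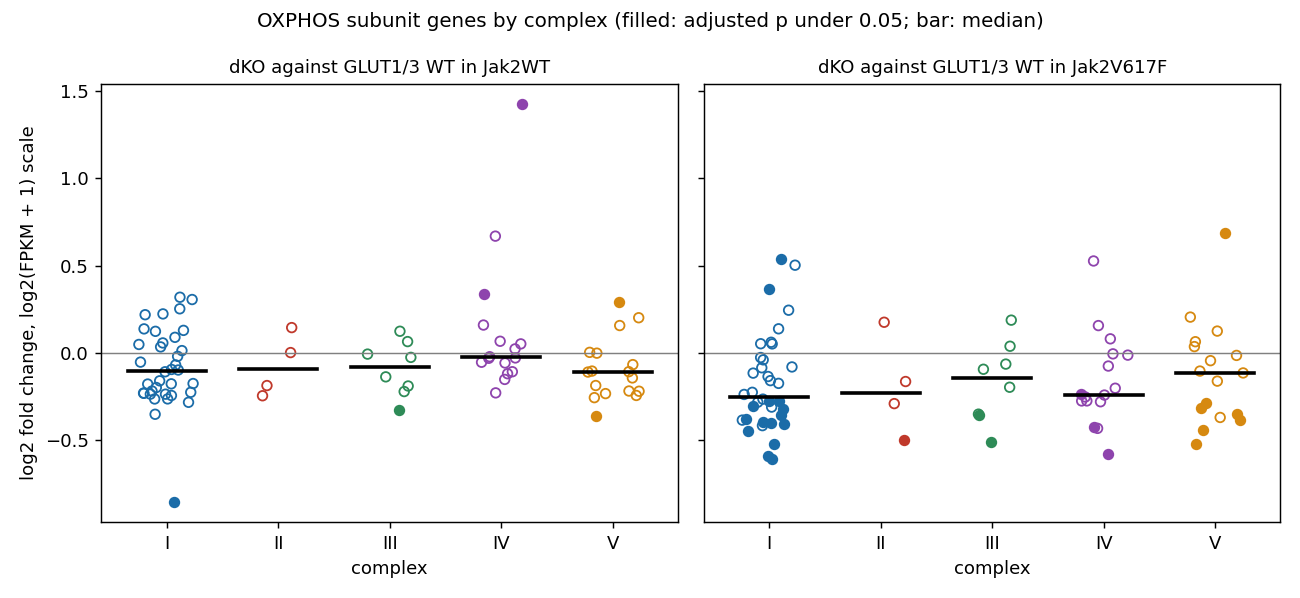
Log2 fold change of dKO against GLUT1/3 WT for each tested OXPHOS gene (points, y axis, log2(FPKM + 1) scale) by complex (x axis), in Jak2WT on the left and Jak2V617F on the right. Filled points passed an adjusted p of 0.05 and bars are medians, which lay below 0 in each complex in both panels, here and under each scaling for Jak2V617F, at -0.25 for complex I and -0.11 for complex V in Jak2V617F.

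By complex, the genes that fell in Jak2V617F dKO clones were 13 of 36 in complex I (36.1%), 1 of 4 in complex II, 2 of 8 in complex III, 3 of 16 in complex IV and 6 of 17 in complex V (35.3%). The medians were -0.25, -0.23, -0.14, -0.24 and -0.11 in that order. Those of complexes III and V came closest to 0 under other scalings, at -0.05 and -0.03 with the same summed FPKM. These counts stand beside 16.2% of all genes tested. The 3 genes that rose were Ndufa5 and Ndufb4 of complex I and Atp5j of complex V. In Jak2WT dKO clones the medians were -0.10, -0.09, -0.08, -0.03 and -0.11.

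Complex I takes electrons from NADH in its N module, hands them to ubiquinone in the Q module and pumps protons in a membrane arm. In Jak2V617F dKO clones, 5 of 10 N module genes fell (median -0.29), 1 of 5 Q module genes fell and 1 rose (median -0.03), and 7 of 21 membrane arm genes fell and 1 rose (median -0.23). Of the N module calls only that of Ndufv3 was kept in every alternative, and the others were lost without Jak2V617F GLUT1/3 WT clone 1. Among the membrane arm genes that fell, only the call of Ndufa9 was kept in every alternative. Of the 7 core subunits 3 fell, Ndufs1 and Ndufv2 among them, and of the 29 supernumerary subunits 10 fell and 2 rose. Of all genes tested, 16.2% fell and 13.7% rose, so 1 call each way among 5 genes lies near that background.

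Ndufv3 (ENSMUSG00000024038, GRCm39 chromosome 17, 31739089 to 31750305), a small accessory subunit of the N module, fell in both backgrounds. It measured 23.9 and 22.5 FPKM in Jak2WT GLUT1/3 WT clones and 12.1 and 12.6 FPKM in Jak2WT dKO clones. In Jak2V617F it measured 22.5 and 19.2 FPKM in GLUT1/3 WT clones and 12.2 and 14.5 FPKM in dKO clones. Every dKO clone lay below every GLUT1/3 WT clone, with a log2 fold change of -0.86 ± 0.11 (SE, adjusted p = 0.00689) in Jak2WT and -0.61 ± 0.11 (adjusted p = 0.0073) in Jak2V617F. The Jak2WT call was lost without Jak2WT GLUT1/3 WT clone 1 or 3 or Jak2WT dKO clone 1 (adjusted p up to 0.0615).

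Ndufa9 (chromosome 6, 126798684 to 126826099), a subunit at the joint of the Q module and the membrane arm (counted with the arm here), measured 61.2 and 67.0 FPKM in Jak2WT GLUT1/3 WT clones and 52.7 and 53.7 FPKM in Jak2WT dKO clones. It measured 78.3 and 68.7 FPKM in Jak2V617F GLUT1/3 WT clones and 53.7 and 48.0 FPKM in Jak2V617F dKO clones. The groups did not overlap in either background, and the fold change was -0.52 ± 0.10 (adjusted p = 0.00858) in Jak2V617F and -0.26 ± 0.10 (adjusted p = 0.119) in Jak2WT. Ndufb6, a membrane arm subunit, went from 80.4 and 71.8 FPKM to 47.2 and 53.4 FPKM in Jak2V617F, at -0.59 ± 0.12 (adjusted p = 0.0116). This call was lost without Jak2V617F GLUT1/3 WT clone 1 or dKO clone 1 (adjusted p up to 0.0612). Ndufb8, a membrane arm subunit often used to report complex I on blots, went from 41.3 and 35.9 FPKM to 27.2 and 30.5 FPKM, at -0.41 ± 0.11 (adjusted p = 0.0277), and was lost without the same libraries. In Jak2WT it measured 35.4 and 39.6 FPKM without and 34.6 and 31.6 FPKM with the deletion.

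Further complex I genes fell in Jak2V617F dKO clones. The NADH-side subunits Ndufv2, Ndufs1 and Ndufs6 changed by -0.38, -0.30 and -0.40, and Ndufa7, Ndufa10, Ndufa13, Ndufb5 and Ndufc2 by -0.27, -0.28, -0.36, -0.45 and -0.40 on the log2 scale. None of these calls was kept in every alternative. Ndufb5 lies on chromosome 3 and Ndufs6 on chromosome 13, where all genes tested had median changes of -0.26 and -0.18 in this comparison. The median of all genes there was low in Jak2V617F dKO clone 1. Ndufb5 measured 8.18 FPKM in that clone and 11.04 FPKM in clone 3, against 13.4 and 13.3 FPKM in GLUT1/3 WT clones.

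Ndufa5 and Ndufb4 went the other way. Ndufa5 (chromosome 6, 24518665 to 24528012), a Q module accessory subunit, measured 17.5 and 18.7 FPKM in Jak2WT GLUT1/3 WT clones, 15.6 and 16.2 FPKM in Jak2WT dKO clones, 14.2 and 12.3 FPKM in Jak2V617F GLUT1/3 WT clones and 19.01 and 20.3 FPKM in Jak2V617F dKO clones. It was thus lowest in Jak2V617F cells with their transporters and highest in Jak2V617F dKO clones, without overlap. The deletion raised it by 0.54 ± 0.09 (adjusted p = 0.00546) in Jak2V617F, while Jak2WT gave -0.18 ± 0.09 (adjusted p = 0.232), and the interaction was 0.72 ± 0.13 (adjusted p = 0.0206). The interaction was lost with no filter and without any one of the 4 Jak2WT libraries (adjusted p up to 0.0917). Ndufb4, a membrane arm subunit on chromosome 16, measured 10.5 and 10.1 FPKM in Jak2V617F GLUT1/3 WT clones and 13.2 and 13.9 FPKM in dKO clones, at 0.36 ± 0.10 (adjusted p = 0.0264). With chromosome medians set equal, its change was 0.09 (adjusted p = 0.512).

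Between the GLUT1/3 WT clones, Jak2V617F against Jak2WT gave 6 lower and 11 higher OXPHOS genes of 81 (7.41% and 13.6%), where 14.9% of all genes tested were lower and 15.3% higher. The median was 0.05, beside 0.0076 for all genes, and it turned to -0.10 with the same summed FPKM, a scaling that moved the median of all genes to -0.12 (17 lower, 4 higher), and to -0.055 with voom (10 lower, 6 higher). Relative to all genes the members' median was 0.040 on the deposited scale and 0.023 with the same summed FPKM. Without Jak2WT GLUT1/3 WT clone 1 or 3 the counts were 4 lower and 4 higher, and 2 and 3. Without Jak2V617F GLUT1/3 WT clone 1 or 3 they were 7 and 5, and 3 and 6.

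In complex I, 6 of 36 genes were higher and 2 lower in Jak2V617F than in Jak2WT among GLUT1/3 WT clones (16.7% and 5.56%), beside 15.3% and 14.9% of all genes tested, so the higher share was near the background. The higher ones included the core Q module subunit Ndufs3 at 0.35 (adjusted p = 0.0194), the N module subunits Ndufa6 and Ndufa7 at 0.44 ± 0.10 (adjusted p = 0.0146) and 0.40 (adjusted p = 0.0121), and Ndufb9 and Ndufa13 at 0.34 and 0.27. Ndufa6 measured 23.3 and 21.2 FPKM in Jak2WT against 31.2 and 30.2 FPKM in Jak2V617F. The lower ones were Ndufa5 at -0.43 (adjusted p = 0.013) and Ndufb4 at -0.38 (adjusted p = 0.0232), the latter at -0.06 (adjusted p = 0.632) with chromosome medians set equal. Each of these 8 calls was lost without Jak2WT GLUT1/3 WT clone 3.

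Complex II is succinate dehydrogenase, in which the flavoprotein Sdha and the iron-sulphur subunit Sdhb form the catalytic part and Sdhc and Sdhd anchor it in the membrane. Sdha (chromosome 13, 74470373 to 74498399) measured 76.1 and 81.5 FPKM in Jak2WT GLUT1/3 WT clones, 68.3 and 69.8 FPKM in Jak2WT dKO clones, 95.1 and 84.9 FPKM in Jak2V617F GLUT1/3 WT clones and 55.7 and 72.0 FPKM in Jak2V617F dKO clones. The dKO clones lay below the GLUT1/3 WT clones in both backgrounds, and Sdha fell in Jak2V617F, at -0.50 ± 0.13 (adjusted p = 0.0245), against -0.19 ± 0.13 (adjusted p = 0.358) in Jak2WT. The call was lost without Jak2V617F GLUT1/3 WT clone 1 or dKO clone 1 (adjusted p up to 0.114), and the change was -0.32 (adjusted p = 0.0172) with chromosome medians set equal. The interaction was -0.31 ± 0.18 (adjusted p = 0.287).

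The other complex II subunits passed the test in none of the 5 comparisons. Sdhb measured 26.4 and 28.03 FPKM in Jak2WT GLUT1/3 WT clones and 30.1 and 30.3 FPKM in dKO clones, and 27.2 and 26.6 FPKM and then 31.9 and 29.1 FPKM in Jak2V617F. Its dKO clones thus lay above the GLUT1/3 WT clones in each background, at 0.15 ± 0.08 (adjusted p = 0.25) and 0.18 (adjusted p = 0.13). Sdhc measured 27.7 and 30.4 FPKM and then 28.9 and 29.2 FPKM in Jak2WT, where the groups overlapped, and 32.9 and 28.8 FPKM and then 23.9 and 26.1 FPKM in Jak2V617F, at -0.29 (adjusted p = 0.0553). Sdhd, the most abundant of the complex, measured 122 and 133 FPKM and then 109 and 106 FPKM in Jak2WT, at -0.25 ± 0.09 (adjusted p = 0.118). In Jak2V617F it measured 141 and 125 FPKM and then 115 and 121 FPKM, at -0.16 (adjusted p = 0.216).

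Complex III oxidises ubiquinol with the Rieske iron-sulphur protein Uqcrfs1, and Uqcrc1 and Uqcrc2 form its matrix core. Uqcrfs1 (chromosome 13, 30724291 to 30729345) measured 84.4 and 88.7 FPKM in Jak2WT GLUT1/3 WT clones, 75.0 and 73.2 FPKM in Jak2WT dKO clones, 105 and 97.7 FPKM in Jak2V617F GLUT1/3 WT clones and 61.9 and 81.0 FPKM in Jak2V617F dKO clones. It fell in Jak2V617F, at -0.51 ± 0.12 (adjusted p = 0.0213), with its lowest value in clone 1, and at -0.33 (adjusted p = 0.01) with chromosome medians set equal. The call was lost without either Jak2V617F GLUT1/3 WT clone or without dKO clone 1 (adjusted p up to 0.0957). The small subunit Uqcrq went from 45.8 and 44.3 FPKM to 34.3 and 35.8 FPKM in Jak2V617F, at -0.35 ± 0.08 (adjusted p = 0.0185), and measured 42.8, 48.0, 44.2 and 46.0 FPKM in the Jak2WT clones. It was also lower in Jak2V617F than in Jak2WT among dKO clones, at -0.36 (adjusted p = 0.028). The first of these calls was lost without Jak2V617F GLUT1/3 WT clone 1 or dKO clone 1, and the second without any one dKO library. Uqcrc2 measured 85.4 and 69.8 FPKM and then 59.4 and 61.3 FPKM in Jak2V617F, at -0.35 (adjusted p = 0.0501).

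Uqcr11, a small subunit of complex III, was highest in Jak2WT GLUT1/3 WT clones at 71.3 and 75.9 FPKM and measured 59.0 and 57.9 FPKM in Jak2WT dKO clones. It was 53.7 and 50.8 FPKM in Jak2V617F GLUT1/3 WT clones and 48.2 and 51.8 FPKM in Jak2V617F dKO clones. It was the 1 complex III gene that fell with the deletion in Jak2WT, at -0.33 ± 0.08 (adjusted p = 0.0379), a call lost without any one Jak2WT library (adjusted p up to 0.207). It was lower in Jak2V617F than in Jak2WT among GLUT1/3 WT clones at -0.49 (adjusted p = 0.00476), in every alternative. Uqcrh, the hinge protein, was higher there at 0.26 ± 0.08 (adjusted p = 0.0437), a call kept in 2 of 16 alternatives. For Uqcr10 the interaction was the largest of the complex, at 0.38 ± 0.14 (adjusted p = 0.127).

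Complex IV passes electrons from cytochrome c to oxygen, and its nuclear subunits include isoform pairs of which one form is typical of muscle, lung or testis. Cox4i1 (chromosome 8, 121394961 to 121400946), the common form of the subunit that regulates the enzyme through ATP, measured 140.1 and 149 FPKM in Jak2WT GLUT1/3 WT clones and 148 and 152 FPKM in Jak2WT dKO clones. It measured 234 and 224 FPKM in Jak2V617F GLUT1/3 WT clones and 163 and 143 FPKM in Jak2V617F dKO clones. Both Jak2V617F clones with their transporters lay above the 6 other clones. Cox4i1 was higher there than in Jak2WT by 0.66 ± 0.09 (adjusted p = 0.0026) and fell with the deletion, at -0.58 ± 0.09 (adjusted p = 0.00397), both in every alternative, while the Jak2WT change was 0.05 ± 0.09 (adjusted p = 0.735). The interaction of -0.63 ± 0.13 (adjusted p = 0.0282) was lost with no filter and without any one of the Jak2WT libraries or either Jak2V617F GLUT1/3 WT clone (adjusted p up to 0.111).

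Cox7a2l (chromosome 17, 83809347 to 83824759), also called SCAF1, joins complexes III and IV into supercomplexes. It measured 64.7 and 66.8 FPKM in Jak2WT GLUT1/3 WT clones and 86.4 and 80.7 FPKM in Jak2WT dKO clones. It measured 101 and 98.6 FPKM in Jak2V617F GLUT1/3 WT clones and 113 and 110.3 FPKM in Jak2V617F dKO clones, so that no 2 groups overlapped. The differences were 0.34 ± 0.07 (adjusted p = 0.0283) for the deletion in Jak2WT, 0.60 (adjusted p = 0.00197) for Jak2V617F among GLUT1/3 WT clones and 0.41 (adjusted p = 0.0115) among dKO clones. The deletion in Jak2V617F gave 0.16 (adjusted p = 0.152). The first of these was lost without any one Jak2WT library (adjusted p up to 0.177), the second was kept in every alternative, and the third was lost without Jak2WT dKO clone 3. Its paralogue Cox7a2, the common form of subunit 7a, measured 65.3 to 79.6 FPKM and passed no test.

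Cox7c and Cox6c, small structural subunits, also fell in Jak2V617F dKO clones. Cox7c went from 105 and 95.2 FPKM to 65.2 and 84.4 FPKM, at -0.42 ± 0.13 (adjusted p = 0.0404). It lies on chromosome 13, where the median change of all genes tested was -0.18. Cox6c went from 32.7 and 31.6 FPKM to 27.3 and 27.0 FPKM, at -0.24 ± 0.07 (adjusted p = 0.0498). These calls were kept in 4 and 3 of 16 alternatives. Ndufa4 measured 78.0 to 86.0 FPKM in the Jak2WT clones and 61.3 to 67.7 FPKM in the Jak2V617F clones. It was lower in Jak2V617F, at -0.36 ± 0.09 (adjusted p = 0.0179) among GLUT1/3 WT clones and at -0.32 (adjusted p = 0.0442) among dKO clones. These calls were lost without Jak2WT GLUT1/3 WT clone 1 or 3 or Jak2V617F GLUT1/3 WT clone 3, and the second was kept in 4 of 16 alternatives.

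The tissue-typical isoforms of complex IV were low next to their common partners. Cox4i2, the lung form, ranged from 0.0961 to 1.46 FPKM, and Cox7a1 and Cox6a2, the muscle forms, from 0.741 to 2.08 FPKM and from 0 to 3.71 FPKM. The partners Cox6a1, Cox6b1, Cox7b and Cox8a ranged from 132 to 187, 142 to 185, 93.8 to 110.4 and 286 to 385 FPKM, and none of these passed a test. Cox6a2 measured 1.00 and 0.339 FPKM in Jak2WT GLUT1/3 WT clones, 3.71 and 3.13 FPKM in Jak2WT dKO clones, 0.893 and 0.691 FPKM in Jak2V617F GLUT1/3 WT clones and 0 and 0.758 FPKM in Jak2V617F dKO clones. The value of 0 allows up to 0.127 FPKM, at 3 reads. Both Jak2WT dKO clones stood above all others. Without them only 1 library reached 1 FPKM, so Cox6a2 passed the filter through the group where it was high, and its calls are counted among those of the 81 genes but not read as results. The change was 1.43 ± 0.30 (adjusted p = 0.0246) against Jak2WT GLUT1/3 WT clones. Jak2V617F against Jak2WT among dKO clones was -1.73 (adjusted p = 0.00958), which was lost without Jak2WT dKO clone 1 (adjusted p = 0.0731), while the former was lost without any one Jak2WT library and with a pseudocount of 0.1, no filter or voom (adjusted p up to 0.139). With no filter the adjusted p of the latter was 0.045. Over the alternatives these changes ran from 1.14 to 2.33 and from -4.90 to -1.33, and the interaction of -1.86 ran from -4.97 to -1.45. These differences rest on 0 to 105 reads a library. Cox6b2, Cox8b and Ndufa4l2 stayed at or below 0.251, 0.421 and 0.184 FPKM and were not tested, and Cox7b2, Cox8c, Ndufb11b and a second entry for Atp5o had 0 reads in all 8 libraries.

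Complex V joins the catalytic F1 head to a c-ring in the membrane, and a peripheral stalk holds the head still. In Jak2V617F dKO clones 4 of 5 F1 head genes fell (median -0.31), 1 of 4 stalk genes rose (median 0.08), 1 of 3 c-ring genes fell and 1 of 5 other membrane subunits fell (median -0.11). Of the F1 head calls only that of Atp5b was kept in every alternative, and the others were lost without Jak2V617F GLUT1/3 WT clone 1. Of all genes tested 16.2% fell and 13.7% rose, and a single call among 3 to 5 genes does not set a part apart from that background. Atp5b (chromosome 10, 127919142 to 127926260), the catalytic beta subunit, measured 331 and 368 FPKM in Jak2WT GLUT1/3 WT clones, 274 and 269 FPKM in Jak2WT dKO clones, 406 and 358 FPKM in Jak2V617F GLUT1/3 WT clones and 264 and 268 FPKM in Jak2V617F dKO clones. All dKO clones lay below all GLUT1/3 WT clones. The change was -0.36 ± 0.09 (adjusted p = 0.0458) in Jak2WT and -0.52 ± 0.09 (adjusted p = 0.0072) in Jak2V617F. The Jak2WT call was lost without any one Jak2WT library and without either Jak2V617F dKO clone (adjusted p up to 0.238).

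Atp5a1, the alpha subunit, went from 413 and 362 FPKM to 309 and 313 FPKM in Jak2V617F, at -0.31 ± 0.09 (adjusted p = 0.0415), kept in 6 of 16 alternatives. In Jak2WT it went from 328 and 359 FPKM to 288 and 292 FPKM, at -0.24 ± 0.09 (adjusted p = 0.125). Atp5c1, the central shaft subunit gamma, went from 183 and 166 FPKM to 118 and 139 FPKM in Jak2V617F, at -0.44 ± 0.11 (adjusted p = 0.0189), lost without Jak2V617F GLUT1/3 WT clone 1 or dKO clone 1. The delta subunit Atp5d and the membrane subunit Atp5j2 changed by -0.29 and -0.35, kept in 3 and 6 of 16 alternatives. Atp5j2 lies on chromosome 5 and measured 20.1 and 17.0 FPKM in Jak2V617F dKO clones, and its change was -0.25 with chromosome medians set equal (adjusted p = 0.0349). Among GLUT1/3 WT clones, Atp5c1 was higher in Jak2V617F by 0.33 (adjusted p = 0.0498), a call kept in 4 of 16 alternatives.

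The c-ring protein is made by 3 genes that encode the same mature peptide with different import sequences. Atp5g2 (chromosome 15, 102571299 to 102580787) measured 78.3 and 78.5 FPKM in Jak2WT GLUT1/3 WT clones, 93.1 and 99.2 FPKM in Jak2WT dKO clones, 118 and 116 FPKM in Jak2V617F GLUT1/3 WT clones and 86.7 and 92.0 FPKM in Jak2V617F dKO clones. The deletion raised it in Jak2WT by 0.29 ± 0.08 (adjusted p = 0.0456) and lowered it in Jak2V617F (-0.38 ± 0.08, adjusted p = 0.00993), and the interaction was -0.67 ± 0.11 (adjusted p = 0.0163). The Jak2WT call was lost in 10 of 16 alternatives, each single Jak2WT library among them, and the interaction without Jak2WT GLUT1/3 WT clone 1 or 3 or Jak2WT dKO clone 1 (adjusted p up to 0.0792). It was higher in Jak2V617F than in Jak2WT among GLUT1/3 WT clones by 0.57 (adjusted p = 0.0024), in every alternative. Atp5g1, at 16.7 to 22.5 FPKM, and Atp5g3, at 67.8 to 90.3 FPKM, passed no test. Reads of near-identical coding parts can be shared between these genes. The inhibitor gene Atp5if1 was not matched in the table.

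Atp5j (chromosome 16, 84624754 to 84632513), the coupling factor 6 subunit of the stalk, measured 34.0 and 36.3 FPKM in Jak2WT GLUT1/3 WT clones and 31.3 and 28.9 FPKM in Jak2WT dKO clones. It measured 18.5 and 16.7 FPKM in Jak2V617F GLUT1/3 WT clones and 29.4 and 28.4 FPKM in Jak2V617F dKO clones. The Jak2V617F clones with their transporters were lowest, without overlap with the other groups. It was lower in Jak2V617F than in Jak2WT, at -0.96 ± 0.09 (adjusted p = 0.000584) among GLUT1/3 WT clones, rose with the deletion in Jak2V617F by 0.69 ± 0.09 (adjusted p = 0.00173), and gave an interaction of 0.90 ± 0.12 (adjusted p = 0.0118). The interaction was lost without Jak2WT GLUT1/3 WT clone 1 or 3 (adjusted p up to 0.0669). With chromosome medians set equal, the changes were -0.65, 0.41 and 0.65, all still past the test. Its start lies 700 bases from that of Gabpa on the other strand, which begins within the listed Atp5j gene. Exons of Gabpa and Jam2 on the other strand overlap 29.6% of the exon bases of Atp5j. Gabpa changed by -0.43 ± 0.10 (adjusted p = 0.0173) in Jak2V617F against Jak2WT among GLUT1/3 WT clones, beside a median of -0.33 over all genes tested on that chromosome. The stalk gene Atp5o on the same chromosome measured 31.7 and 26.5 FPKM in Jak2V617F GLUT1/3 WT clones and 32.5 to 38.2 FPKM in the other clones, with no change past the test.

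Atp5k, a membrane subunit that supports dimers of the enzyme, was lower in Jak2V617F than in Jak2WT, at 20.6 and 20.7 FPKM against 29.1 and 31.2 FPKM among GLUT1/3 WT clones, a difference of -0.52 ± 0.10 (adjusted p = 0.0093). Among dKO clones it measured 21.1 and 17.2 FPKM against 25.5 and 25.5 FPKM, a change of -0.40 (adjusted p = 0.0364). The first call was lost without Jak2WT GLUT1/3 WT clone 3 (adjusted p = 0.0676), and the second was kept in 5 of 16 alternatives. Atp5k lies on chromosome 5, where the median of all genes was -0.13 among dKO clones in Jak2V617F against Jak2WT, with 16.3% lower and 2.93% higher. With chromosome medians set equal the second change was -0.26 (adjusted p = 0.0438).

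**Figure D2:**
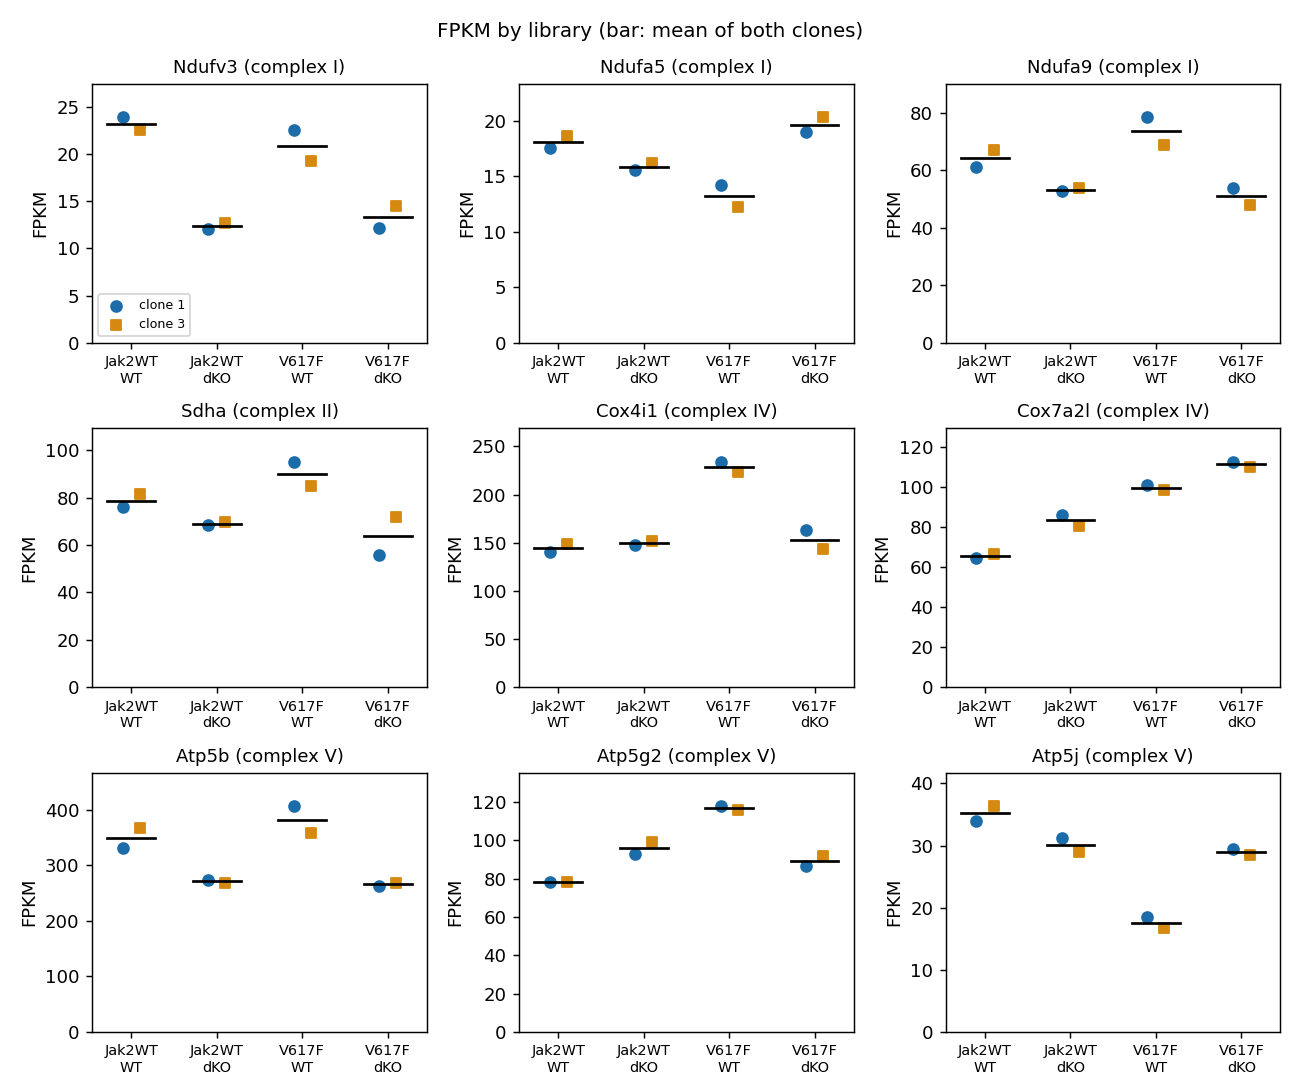
FPKM (y axes, from 0) of 9 OXPHOS genes in the 4 groups (x axes), with clone 1 as circles, clone 3 as squares and bars for the mean of both clones. Ndufv3 and Atp5b were lower in both dKO groups, Cox4i1 was highest and Atp5j lowest in Jak2V617F GLUT1/3 WT clones, and Sdha in Jak2V617F dKO clones measured 55.7 FPKM in clone 1 and 72.0 FPKM in clone 3.

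Among dKO clones, Jak2V617F against Jak2WT gave 4 lower genes (Uqcrq, Cox6a2, Ndufa4 and Atp5k) and 1 higher gene (Cox7a2l) of 81, or 4.94% and 1.23%, where 9.96% of all genes tested were lower and 7.12% higher. The median was -0.06, beside -0.023 for all genes. The split was 4 lower and 5 higher with the same summed FPKM, 5 and 3 with voom, 4 and 2 with median ratios and 4 and 2 with chromosome medians set equal. Leaving out 1 library gave 0 to 5 lower genes, with 0 without Jak2WT dKO clone 1, 1 without Jak2WT dKO clone 3 and 2 without Jak2WT GLUT1/3 WT clone 1 or 3 or Jak2V617F dKO clone 1. The calls lay in complexes III, IV and V, and the largest changes of complexes I and II were -0.34 ± 0.11 (adjusted p = 0.0808) for Ndufc2, a membrane arm subunit, and -0.21 (adjusted p = 0.177) for Sdhc.

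The interaction of background and deletion, which asks whether the dKO effect differed between Jak2V617F and Jak2WT, was negative for 5 genes and positive for 2 of 81 (6.17% and 2.47%), where 5.91% of all genes tested were negative and 4.72% positive. These were Ndufa7, Ndufa13, Cox4i1, Cox6a2 and Atp5g2 on the negative side and Ndufa5 and Atp5j on the positive side. The median interaction was -0.12, beside -0.039 for all genes, and it turned to 0.07 with the same summed FPKM (3 negative, 7 positive), where that of all genes was 0.12, and to 0.025 with voom (3 and 3). None of the 7 was kept in every alternative. All were lost without Jak2WT GLUT1/3 WT clone 1 or 3, as were most interactions called over all genes. The median interaction of the 81 genes was then -0.048 and -0.18, beside -0.035 and -0.052 for all genes. Some were also lost without either Jak2WT dKO clone or either Jak2V617F GLUT1/3 WT clone, where fewer of all genes passed as well. Of the 25 genes that fell in Jak2V617F, the interaction passed its test for Ndufa7, Ndufa13, Cox4i1 and Atp5g2.

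The dKO effects in both backgrounds share no library, and across the 81 genes they had a Pearson r of 0.22, beside 0.37 across all 11818 genes, given without a p since genes are not independent replicates. By complex, r was 0.38 over 36 genes of complex I, 0.03 over 8 of complex III, 0.14 over 16 of complex IV and 0.08 over 17 of complex V. On the deposited FPKM scale, the effect was lower in Jak2V617F than in Jak2WT for 56 of 81 genes, beside 6414 of 11818 genes overall. By complex this held for 24 of 36, 2 of 4, 6 of 8, 14 of 16 and 10 of 17. These tallies depend on scaling. The median interaction of the 81 genes was 0.07 with the same summed FPKM and 0.025 with voom, beside 0.12 and 0.11 for all genes.

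**Figure D3:**
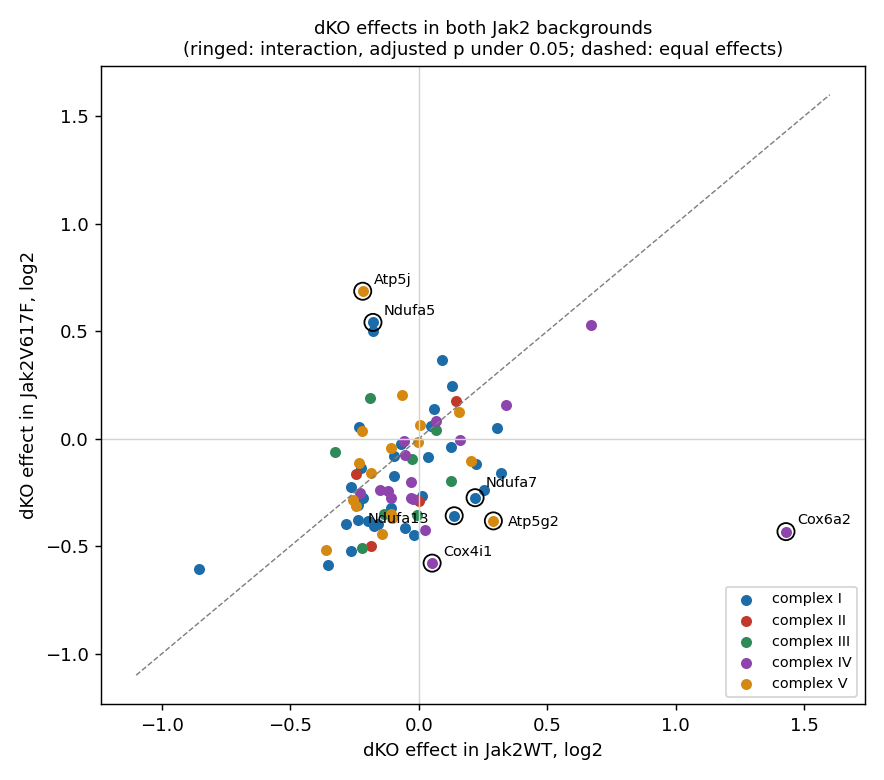
Log2 fold change of dKO against GLUT1/3 WT in Jak2WT (x axis) and in Jak2V617F (y axis) for the 81 tested OXPHOS genes, coloured by complex, with a dashed line of equal effects and rings around the 7 genes whose interaction passed an adjusted p of 0.05. Atp5j and Ndufa5 lie above the line, with interactions of 0.90 and 0.72, and Cox6a2, at 1.43 in Jak2WT, lies farthest below it.

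Genes that build or supply the complexes were taken from lists written for this comparison. Of Ndufab1 and Cyc1, the 2 subunits outside the naming rule, 0 passed the test with the deletion in either background. Among GLUT1/3 WT clones, 1 of them was lower in Jak2V617F than in Jak2WT, beside 14.9% of all genes tested. In Jak2V617F dKO clones, 4 of 18 complex I assembly factors fell and 3 rose (22.2% and 16.7%, median 0.02), beside 16.2% and 13.7% of all genes tested. The 4 for complex II lay between -0.19 and 0.13 with none past the test, 1 of 5 for complex III fell, 1 of 23 for complex IV fell and 1 rose, and 1 of 6 for complex V fell and 1 rose. Bcs1l, which inserts the Rieske protein, changed by -0.36 ± 0.08 (adjusted p = 0.0183). Higd1a, a small protein bound to complex IV under low oxygen, changed by -0.95 ± 0.20 (adjusted p = 0.0121), and Cox17, the copper chaperone of complex IV, by 0.61 ± 0.16 (adjusted p = 0.0259). Tmem70, which aids c-ring assembly, and Atpaf1, which chaperones the beta subunit, changed by -0.43 ± 0.08 (adjusted p = 0.00904) and 0.61 ± 0.12 (adjusted p = 0.00883).

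In Jak2WT dKO clones, where 6.06% of all genes tested fell and 7.62% rose, these lists held 2 lower and 2 higher complex I factors, 1 higher complex III factor, 2 higher complex IV factors and 1 lower complex V factor. Ndufaf4, an assembly factor of complex I, rose by 0.77 ± 0.08 (adjusted p = 0.00373) there, and its interaction was -0.66 ± 0.11 (adjusted p = 0.0177). Between GLUT1/3 WT clones, where 14.9% of all genes tested were lower and 15.3% higher in Jak2V617F than in Jak2WT, 3 complex I factors were lower and 2 higher of 18 (16.7% and 11.1%). None of the 4 for complex II passed the test (0.02 to 0.37), 3 of 5 for complex III were higher (Bcs1l at 0.35, Ttc19 at 0.46 and Uqcc1 at 0.53), 4 of 23 for complex IV were higher (17.4%), and 1 of 6 for complex V was lower and 1 higher. Of 12 electron carrier genes, 2 fell and 2 rose in Jak2V617F dKO clones (16.7% each way), near the 16.2% and 13.7% of all genes tested, with cytochrome c (Cycs) at 0.52 ± 0.10 (adjusted p = 0.00901) and the ubiquinone biosynthesis protein Coq9 at -0.70 ± 0.12 (adjusted p = 0.00586). Of the 13 subunits encoded by mitochondrial DNA, 1 rose in Jak2WT dKO clones, mt-Co3 at 0.75 ± 0.18 (adjusted p = 0.037). In Jak2V617F dKO clones 3 of the 13 rose and 1 fell, with 11 of 13 above 0 and a median of 0.28, beside 13.7% and 16.2% of all genes tested. The gene that fell, mt-Atp8, a membrane subunit of complex V, changed by -0.96 ± 0.15 (adjusted p = 0.00432) with an interaction of -1.52 ± 0.22 (adjusted p = 0.013). Calls of genes on these lists, mt-Atp8 included, were not followed over the alternatives.

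Of 14 regulators of mitochondrial genes, 4 fell and 1 rose in Jak2V617F dKO clones. Lonp1, the matrix protease, fell in both backgrounds, at -0.80 ± 0.08 (adjusted p = 0.0037) in Jak2WT and at -0.94 ± 0.08 (adjusted p = 0.000544) in Jak2V617F. Esrra, which encodes a nuclear receptor of OXPHOS genes, Myc and Hif1a changed by -0.47 (adjusted p = 0.00679), -0.47 (adjusted p = 0.0121) and -0.46 (adjusted p = 0.00543) in Jak2V617F, and Tfam, the mitochondrial DNA packaging factor, by 0.40 ± 0.09 (adjusted p = 0.0185). Among 77 mitochondrial ribosome genes 6 fell and 12 rose (7.79% and 15.6%, median -0.02) in the same comparison, beside 16.2% and 13.7% of all genes tested.

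Where an OXPHOS gene lies was then set beside its change. On chromosomes 3 and 13, all 10 OXPHOS genes were lower in clone 1 than in clone 3 of the Jak2V617F dKO group (median difference -0.386 on the log2 scale), and the 999 genes tested there had a median of -0.267. Elsewhere 35 of 71 were lower in clone 1 (median 0.0046). With the deletion in Jak2V617F, 5 of the 10 genes on chromosomes 3 and 13 fell (median -0.407), where 24.8% of all genes there fell, and 20 of the 71 others fell (median -0.161), where 15.5% of all genes on the other chromosomes fell. On chromosome 16, which holds Atp5j, Ndufb4 and Atp5o, the median of the 375 genes tested was -0.33 in Jak2V617F against Jak2WT among GLUT1/3 WT clones, with 46.4% lower, and 0.28 with the deletion in Jak2V617F, with 37.3% higher. When the median of every chromosome was set equal between libraries, a choice made after the data were seen, 26 OXPHOS genes fell and 2 rose in Jak2V617F dKO clones. Of the 28 calls, 25 were kept, and Ndufa10, Ndufb4 and Ndufb5 were lost. The median change of the 81 genes was then -0.15.

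**Figure D4:**
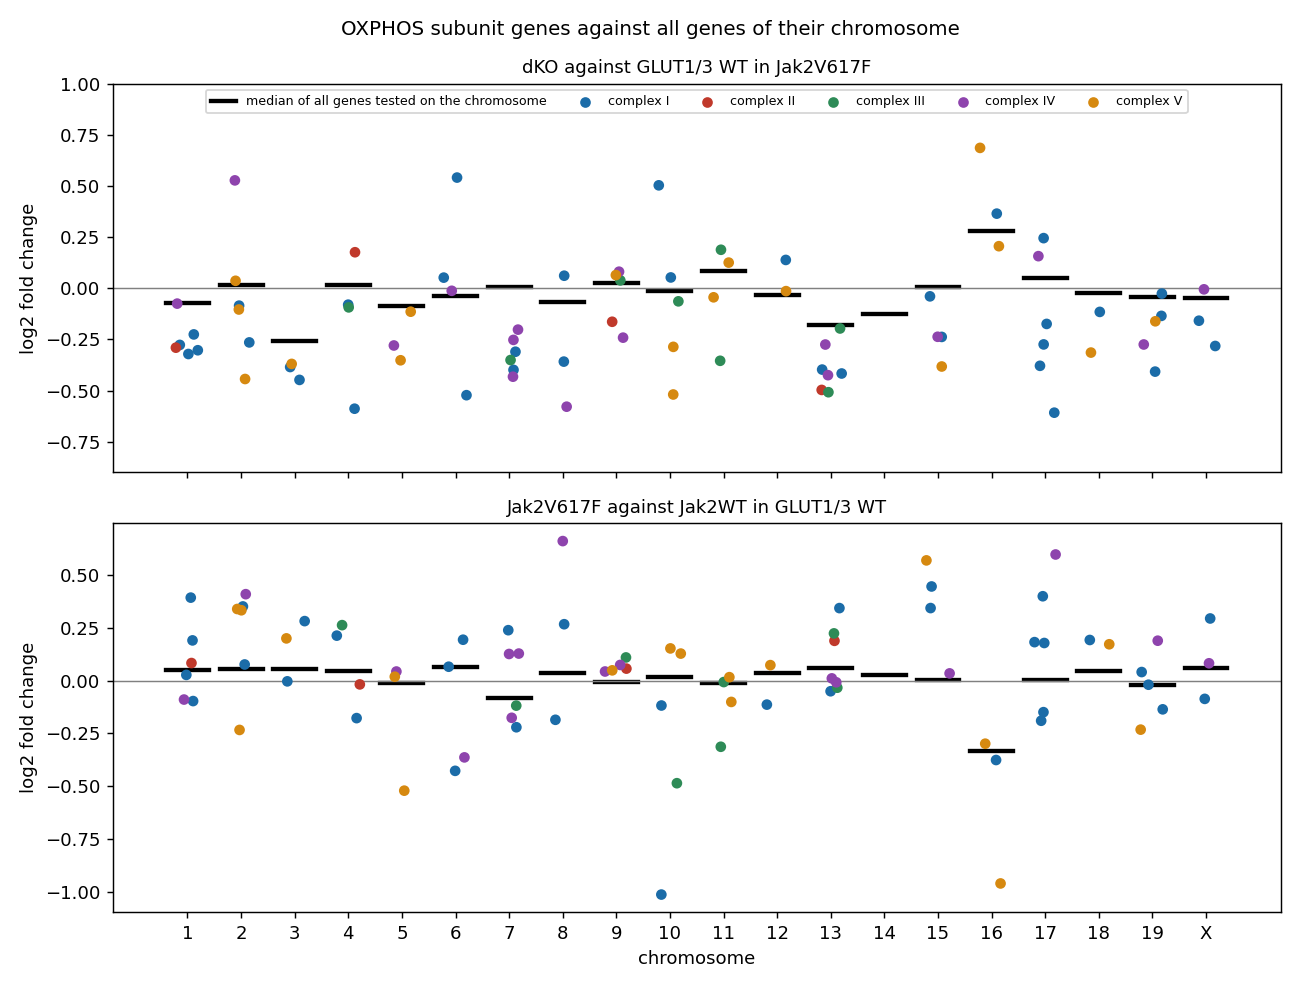
Log2 fold change of each tested OXPHOS gene (points, coloured by complex, y axis) by chromosome (x axis), with bars for the median of all genes tested on the chromosome, for dKO against GLUT1/3 WT in Jak2V617F (top) and Jak2V617F against Jak2WT in GLUT1/3 WT clones (bottom). The chromosome 16 median is 0.28 in the top panel and -0.33 in the bottom panel, and those of chromosomes 3 and 13 are -0.26 and -0.18 in the top panel.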

How the data were processed

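RNA-seq of 8 libraries in 4 groups was analysed, with groups and clone numbers taken from the labels and 0 library columns left unused. Per the submitters' processing notes, the authors used featureCounts 2.0.6 after HISAT2 2.2.1 on mm39 (GRCm39), with reads cleaned in fastp 1.0.1, on poly(A)-selected RNA. The annotation version, the strand setting and the library total behind the scaling are not given in the sources used here. The deposited values are FPKM per gene, with no filter. All values above 0 (100%) were whole multiples of 1 read within 0.01, which gave the reads per gene, the depth and the limit at 3 reads. That limit covers counting error only.

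Genes that reached 1 FPKM in 2 or more libraries were tested on log2(FPKM + 1), a scale that understates changes of low genes, using limma (3.58.1, R 4.3.3) with 1 mean per group (4 residual and 3.34 prior degrees of freedom) and Benjamini-Hochberg adjustment over all genes tested at 0.05. Fold changes are on that scale. Alternatives were a pseudocount of 0.1, no filter, the same summed FPKM, median ratios, voom on recovered reads, only the groups compared, the clone number as a block, each library left out and, chosen after the data were seen, equal chromosome medians. Samples share only a clone number, so no pairing was assumed.

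The members and lists were chosen with earlier results of these data known. Named genes are all Sdh genes, the study's OXPHOS panel, tissue isoforms with their partners, c-ring genes, the highest and lowest of each complex, and up to 3 genes with the largest changes each way per complex and comparison. Others were named after their values were seen. Promoters came from RefSeq (GRCm38.p6 table) and were placed in GRCm39 by exact match. Tables and figures were made with Python 3.11.15, pandas 2.3.3 and matplotlib 3.10.9. Some genes that the naming rule covers are not reported here.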

Additional observations from a re-analysis of the deposited data

Results flagged for a closer look

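For 7 OXPHOS genes the effect of the deletion differed between the Jak2V617F and Jak2WT backgrounds in limma's test of the difference itself, 5 negative and 2 positive of 81 (6.17% and 2.47%), where 5.91% and 4.72% of all genes tested were, so the negative share was near the background and the positive share below it. The difference was negative for Cox6a2 (-1.86, adjusted p = 0.0371), Atp5g2 (-0.67, adjusted p = 0.0163), Cox4i1 (-0.63, adjusted p = 0.0282), Ndufa13 (-0.50, adjusted p = 0.0374) and Ndufa7 (-0.49, adjusted p = 0.0428). Ndufa13, a membrane arm subunit, measured 28.1 and 28.5 FPKM and then 32.8 and 29.8 FPKM in Jak2WT, and 33.7 and 34.8 FPKM and then 27.3 and 25.7 FPKM in Jak2V617F. Ndufa7, of the N module, measured 18.1 and 19.4 FPKM and then 22.9 and 21.1 FPKM in Jak2WT, and 24.4 and 25.7 FPKM and then 21.3 and 19.7 FPKM in Jak2V617F. In both genes the clones of the groups did not overlap in either background, with the dKO clones above in Jak2WT and below in Jak2V617F, and the Jak2WT changes on their own did not pass the test. The difference was positive for Atp5j (0.90, adjusted p = 0.0118) and Ndufa5 (0.72, adjusted p = 0.0206). Cox6a2 passed the filter on low values through the Jak2WT dKO clones, where it was high, so its difference is not read as a result. It was lost with no filter (adjusted p = 0.115), ran from -4.97 to -1.45 over the alternatives and passed the test in 5 of 15. These calls were lost without Jak2WT GLUT1/3 WT clone 1 and without clone 3, as were most interactions called over all genes.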

How the results depend on the processing

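No called OXPHOS gene changed sign under any alternative. Counts of changed genes moved by over 1.5 times as follows, against 3 lower and 3 higher for the deletion in Jak2WT, 25 and 3 in Jak2V617F, 6 and 11 for Jak2V617F against Jak2WT among GLUT1/3 WT clones, 4 and 1 among dKO clones, and 5 and 2 for the interaction. With no filter on low values, which tests 84 of the 88 genes among 25788, the deletion in Jak2WT gave 1 lower and 1 higher, that in Jak2V617F 12 lower, Jak2V617F among dKO clones 2 lower, and the interaction 1 lower and 1 higher. With the same summed FPKM the values were 19 lower in Jak2WT, 8 higher in Jak2V617F, 17 lower and 4 higher among GLUT1/3 WT clones, 5 higher among dKO clones, and 3 lower and 7 higher for the interaction. With voom they were 15 lower, 16 lower and 6 higher, 10 lower and 6 higher, 3 higher and, for the interaction, 3 lower. When only the groups compared entered the fit, the deletion in Jak2V617F gave 6 lower and Jak2V617F among dKO clones 1 lower, and the interaction could not be fitted since it needs all 4 groups. Median ratios gave 2 higher among dKO clones, and equal chromosome medians, chosen after the data were seen, 6 lower in Jak2WT and 2 higher among dKO clones. A pseudocount of 0.1 kept each count within 1.5 times. For the moved counts the cause was not tested. Leaving out 1 library gave 0 to 3 lower and 0 to 3 higher for the deletion in Jak2WT, 6 to 20 and 2 to 3 in Jak2V617F, 2 to 7 and 3 to 12 among GLUT1/3 WT clones, 0 to 5 and 0 to 1 among dKO clones, and 0 to 7 and 0 to 2 for the interaction, and the lone sample of a group was then assumed to vary like the others.

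With the clone number as a replicate block, the deletion in Jak2WT gave 1 lower, Jak2V617F among dKO clones 2 lower and the interaction 2 lower. Deviations of same-numbered clones correlated at -0.25 to 0.15, so the clones share only a number and no pairing was used.

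Within groups, clones differed beyond the sampling of reads (chi-square per gene of 7.88 to 34.6, as a mean over genes), and what limits the test of each OXPHOS gene was not tested. Few reads a library lay behind Cox6a2 (0 to 105), Cox4i2 (3 to 47), Cox7a1 (10 to 44) and Ndufb2 (85 to 352). Exons of another gene overlap 54 of the 81 genes on the other strand and 8 on the same strand.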

Other observations

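Ndufa12, an N module subunit of complex I, varied widely between the clones of each group, at 12.97 and 22.1 FPKM in Jak2WT GLUT1/3 WT clones, 25.1 and 8.65 FPKM in Jak2WT dKO clones, 17.7 and 3.23 FPKM in Jak2V617F GLUT1/3 WT clones and 6.58 and 20.0 FPKM in Jak2V617F dKO clones. The pseudogene entry Ndufa12-ps on chromosome 5 was listed at 32.3 to 55.4 FPKM, so the level of Ndufa12 is uncertain where reads can be shared between the copies.

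Some OXPHOS genes start close to a neighbour on the other strand. Ndufs1 starts 8 bases from Eef1b2, a translation elongation factor, and Ndufv3 starts 135 bases from Wdr4, a tRNA methylation factor. Eef1b2 gave log2 fold changes of 0.43 (adjusted p = 0.0239) with the deletion in Jak2WT, -0.10 (adjusted p = 0.444) with it in Jak2V617F and 0.55 (adjusted p = 0.00463) in Jak2V617F against Jak2WT among GLUT1/3 WT clones, with an interaction of -0.52 (adjusted p = 0.0417). Wdr4 gave log2 fold changes of 0.13 (adjusted p = 0.338) and 0.15 (adjusted p = 0.236) with the deletion in Jak2WT and Jak2V617F, where Ndufv3 changed by -0.86 and -0.61. Exons of Emc8 and Gm27021 on the other strand overlap 16.3% of the exon bases of Cox4i1, and Emc8 gave 0.13 (adjusted p = 0.295) in Jak2V617F against Jak2WT among GLUT1/3 WT clones, where Cox4i1 changed by 0.66.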
